A study of Mus musculus with 2 samples.

Results

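Type 2 conventional dendritic cells (cDC2) were taken from 2 libraries of sorted, living CD45+ lung cells of wild-type C57BL/6N mice. One library held cells taken 15 days after bleomycin (BLM), a chemotherapeutic drug that injures the lung and is followed by inflammation and fibrosis. The other held cells of untreated (naive) lungs. Each library was 1 pool of equal cell numbers from 3 mice, read on the BD Rhapsody system, which counts each transcript once by its unique molecular identifier (UMI), and the labels give no age. The mice, the library and the treatment cannot be told apart here, and cells were not assigned to single mice, so there was no replicate and no test. Of 8451 cells that passed the filters (at least 200 genes, and mitochondrial UMIs not above 15%), 113 were cDC2, 33 of them in BLM and 80 in naive. The cells were selected on measured UMIs. A cell was chosen if it held 1 or more UMIs of Cd209a and Flt3 together and 3 or more UMIs of Cd209a, Clec10a, Mgl2, Flt3 and Tnip3 together. It also had to hold no UMI of the type 1 dendritic cell genes Xcr1 and Clec9a, at most 1 of the maturation gene Fscn1, at most 1 of the T cell genes Cd3e, Cd3d and Cd3g, none of the B cell genes Cd79a and Ms4a1 and none of Siglech, a plasmacytoid dendritic cell gene. The summed UMIs of C1qa, C1qb, C1qc and Ms4a7, genes of interstitial macrophages, and those of Plet1, Car4 and Atp6v0d2, genes of alveolar macrophages, each had to stay under 0.1% of the UMIs of the cell. The depth of the chosen cells was close in the 2 libraries, with a median of 5296 UMIs per cell in BLM (2357 to 15569, 199822 in all) and 5531.5 in naive (704 to 14028, 473540 in all), and a median mitochondrial share of 5.28% and 5.39%. Of the cell indices, 22 occurred in both libraries, and 0 of these belonged to a cDC2.

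Conventional dendritic cells take up antigen in tissues, carry it to lymph nodes and present it to T cells. Type 1 cells depend on the transcription factors Irf8 and Batf3 and present antigen chiefly to CD8 T cells. Type 2 cells depend on Irf4, and part of them on Klf4 or on Notch2 with Rbpj, present antigen on MHC class II to CD4 T cells, and are known in the lung for priming type 2 and type 17 helper responses. On maturation a dendritic cell gains Ccr7, the receptor that guides it to the lymph node, together with Fscn1, Ccl22 and costimulatory molecules. Lung cDC2 resemble monocytes and monocyte-derived cells in much of their surface, so these were set beside them below.

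Levels are given as CPM, the UMIs of a gene per 1000000 UMIs of the same cells summed, and differences as the log2 ratio of CPM, BLM over naive, with its exact 95% interval in parentheses. The intervals cover counting error only, and neither differences between mice nor the fact that UMIs of 1 cell are not independent. The number of cells behind a sum is given for many genes but not for all. Where no UMI was counted, a floor of 3 UMIs was used, equal to 15.0 CPM in BLM and 6.34 CPM in naive.

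Values of the genes that chose the cells describe them and are no result. Cd209a, a C-type lectin receptor (protein coding, GRCm38 chromosome 8, 3743397 to 3748984, minus strand), was seen in 31 cells of BLM and 77 of naive, at 1526 CPM in BLM and 2627 CPM in naive. Mgl2, a galactose-binding lectin, was seen in 18 BLM and 54 naive cells, at 1902 CPM in BLM and 2344 CPM in naive. Its close relative Clec10a was seen in 17 and 39 cells, at 340.3 CPM in BLM and 270.3 CPM in naive. Flt3, the growth factor receptor that dendritic cells depend on, was sparse, with 15 UMIs in 12 BLM cells and 65 UMIs in 42 naive cells. Tnip3, an inhibitor of NF-kB signalling, was seen in 26 and 55 cells, at 916 CPM in BLM and 864 CPM in naive. A median cell held 15 UMIs of the 5 genes together in BLM (3 to 91) and 25 in naive (3 to 141). Most often 3 of the 5 genes were seen in a BLM cell (16 cells) and 4 in a naive cell (28 cells). Close to the limit, 5 BLM and 11 naive cells met every other condition with a sum of 2, and 1 BLM and 6 naive cells were chosen with a sum of 3.

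Genes outside the rule were then used to check the label against 3 neighbours in the same libraries, shown in the map of marker levels. Type 1 cells (cDC1; 46 BLM and 52 naive cells) held 2 or more UMIs of Xcr1 and Clec9a, mature dendritic cells (69 and 11 cells) held 2 or more of Fscn1 with Ccr7, and classical monocytes (168 and 174 cells) held Ccr2, 3 or more of Lyz2, 2 or more of Ly6c2, F13a1 and Vcan together and none of Cd209a and Flt3. These genes chose the neighbours, so their levels in them are a description. Itgam, which encodes CD11b, stood at 400.4 CPM in BLM and 475 CPM in naive in cDC2 and at 17.9 CPM in BLM and 24.1 CPM in naive in cDC1. Irf4 stood at 95.1 CPM in BLM and 103 CPM in naive in cDC2, and at 4.48 CPM in BLM and 32.1 CPM in naive in cDC1. Irf8 lay the other way, at 65.1 CPM in BLM and 42.2 CPM in naive in cDC2 and at 594 CPM in BLM and 736 CPM in naive in cDC1. Irf4 and Irf8 thus differed between the types in the direction known for them, but Batf3 and Klf4 did not separate the types. Batf3 stood at 65.1 CPM in BLM and 33.8 CPM in naive in cDC2, and at 33.6 CPM in BLM and 45.5 CPM in naive in cDC1. Klf4 stood at 115 CPM in BLM and 270.3 CPM in naive in cDC2, and at 128 CPM in BLM and 270.5 CPM in naive in cDC1. The intervals of cDC2 over cDC1 reached 0 for Batf3 and Klf4 in each library. Of the cDC1 genes, 10 of the 10 with 20 or more UMIs over both types were lower past 2-fold in cDC2 in each library (11.9% of all 4091 genes ranked were lower past 2-fold in BLM and 6.81% of 4891 in naive). The integrin Itgae, which encodes CD103, was nearly absent from cDC2, at 1 UMI in BLM and 19 UMIs in 5 cells in naive. Zbtb46, a transcription factor of conventional dendritic cells, stood at 55.0 CPM in BLM and 65.5 CPM in naive in cDC2 and at 0 UMIs in the monocytes of both libraries. H2-Ab1, a chain of MHC class II, reached 10775 CPM in BLM and 15078 CPM in naive in cDC2 against 1657 CPM in BLM and 1503 CPM in naive in monocytes. Of the MHC class II genes, 8 of 10 ranked were higher past 2-fold in cDC2 than in monocytes in BLM (7.75% of 5442 genes) and 10 of 12 in naive (9.27% of 6310).

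**Figure D1:**
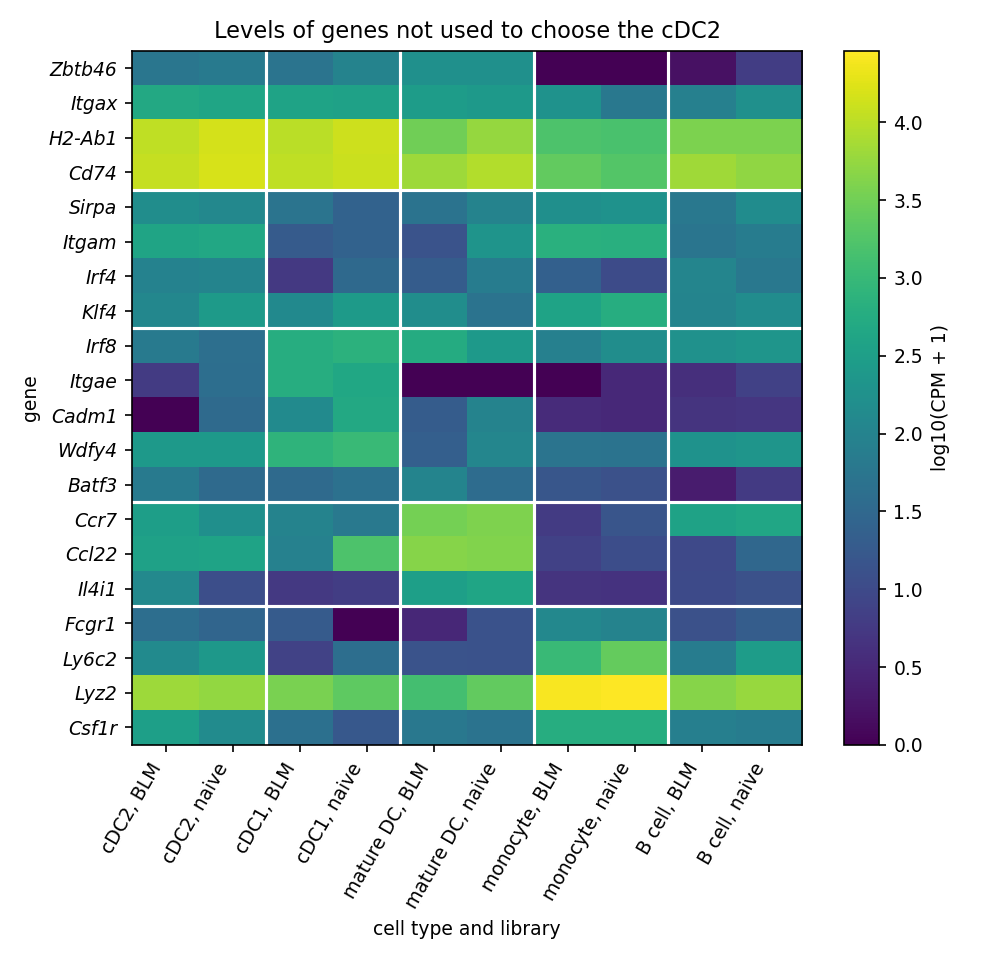
Levels of 20 genes that the choice of cDC2 did not use, as log10(CPM + 1) of the summed cells of each type and library; rows are genes in 5 blocks (conventional, type 2, type 1, mature, monocyte or macrophage) and columns are cDC2, cDC1, mature dendritic cells, classical monocytes and B cells of BLM and of naive. H2-Ab1 and Cd74 are high in both cDC columns, Itgam and Irf4 are higher in cDC2 than in cDC1, and Ccr7 and Ly6c2 are far below mature cells and monocytes, respectively.

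The label held less cleanly toward the mature and monocyte sides. Ccr7 was seen in 9 BLM and 23 naive cDC2, at 320.3 CPM in BLM and 167 CPM in naive, against 3332 CPM in BLM and 3976 CPM in naive in mature cells. Of the mature dendritic cell genes, 16 of 20 ranked were lower past 2-fold in cDC2 than in mature cells in BLM (18.4% of 4278 genes) and 13 of 16 in naive (13.1% of 3774), Ccr7 included in both counts. Lyz2, the lysozyme of myeloid cells, was in every cDC2, at 6316 CPM in BLM and 5522 CPM in naive, against 25728 CPM in BLM and 28854 CPM in naive in monocytes. Ly6c2, which marks classical monocytes, was seen in 8 BLM and 22 naive cDC2, at 135 CPM in BLM and 237 CPM in naive, with 53 of its 112 naive UMIs in 1 cell. Of the monocyte and macrophage genes, 15 of 17 ranked were lower past 2-fold in cDC2 than in monocytes in BLM (15.6%) and 13 of 17 in naive (14.8%), with Ly6c2, F13a1, Vcan and Lyz2, which chose the monocytes, among them. Against cDC1, 7 of 12 genes of the same list were higher in cDC2 in BLM (11.4% of all) and 2 lower (Apoe and Ctsd), and in naive 10 of 12 were higher (10.5%) and 0 lower. Fcgr1, which encodes CD64, was at 8 UMIs in BLM and 13 UMIs in naive cDC2. Of the cDC2 surface genes outside the rule, 2 of 17 ranked were higher past 2-fold in cDC2 than in monocytes in BLM (7.75%). There 6 were lower (15.6%), and in naive 3 of 19 were higher (9.27%) and 5 lower (14.8%). Ccr2, which chose the monocytes, was among the lower. Monocytes held more Itgam (685 CPM in BLM and 644 CPM in naive) and Klf4 (381 and 605 CPM) than cDC2, but less Irf4 (22.4 and 9.30 CPM). The chosen cells thus included many with a UMI of Ly6c2 or of Ccr7, which are described further on.

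The first comparison asked how frequent cDC2 were in injured and naive lung. They made up 0.729% of the BLM cells (33 of 4526, exact 95% interval 0.502% to 1.02%) and 2.04% of the naive cells (80 of 3925, 1.62% to 2.53%). The log2 ratio of the shares was -1.48 (-2.11 to -0.88). A share of sorted CD45+ cells is relative to all other leukocytes, so fewer cDC2 and more of other cells cannot be told apart. The size of the difference depended on the conditions that keep macrophages and mature cells out, as the plot of the share with 1 condition dropped shows. Without the limit on Plet1, Car4 and Atp6v0d2, 50 BLM and 82 naive cells were chosen, a log2 ratio of -0.92 (-1.46 to -0.39). Without the limit on the C1q genes and Ms4a7 the numbers were 48 and 91, a log2 ratio of -1.13 (-1.66 to -0.61). With both limits dropped, 65 BLM cells (1.44%) and 96 naive cells (2.45%) were chosen and the log2 ratio was -0.77 (-1.25 to -0.30). Without the condition on Fscn1, 52 and 84 cells were chosen (-0.90, -1.43 to -0.38), whereas dropping Xcr1 and Clec9a gave 38 and 109 cells (-1.73, -2.30 to -1.18). The share was lower in BLM in each of these settings.

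**Figure D2:**
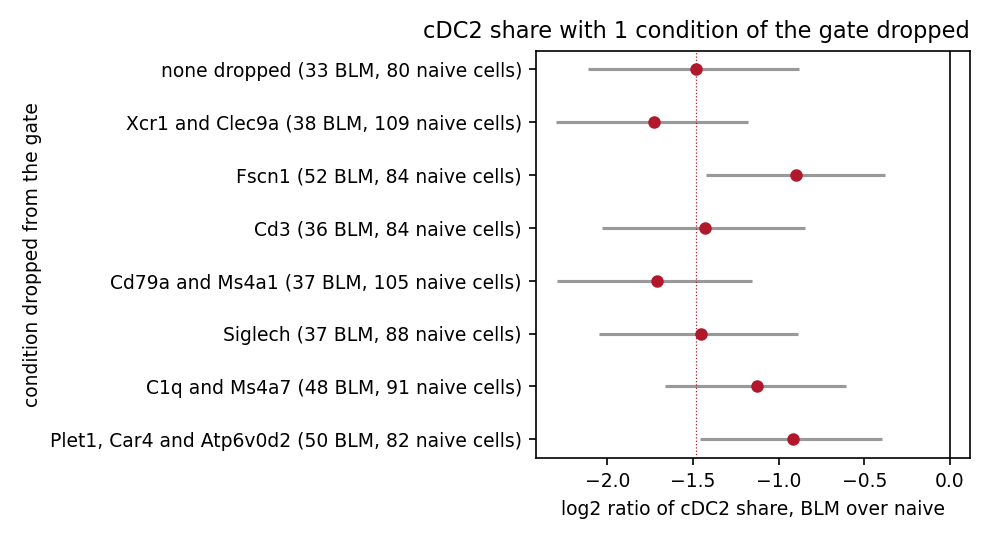
Log2 ratio of the cDC2 share of passed cells, BLM over naive, with the whole rule (top) and with 1 condition dropped at a time; points are ratios, bars exact 95% intervals for counting error, and the dotted line marks the ratio of the whole rule. All 8 ratios lie below 0, from -1.73 to -0.90.

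The cells that only the alveolar macrophage limit kept out were not alike in the libraries. The 17 such cells of BLM held 385 UMIs of Plet1, spread over all 17, but 2 UMIs of Marco and 1 of Krt79, both alveolar macrophage genes, while 1 cell carried 671 of their 692 UMIs of Chil3. They held H2-Ab1 at 11596 CPM and Mgl2 at 2292 CPM, close to the chosen cells, and Ccl17 at 7427 CPM, with 1199 UMIs in 15 of 17 cells. They also held 163 UMIs of Il12b, the p40 chain of interleukins 12 and 23, in 6 cells, of which 122 were in 1 cell, and Ccr7 in 12 cells. The 2 naive cells kept out by the same limit held 43 UMIs of Marco in 1 cell, 31 UMIs of Krt79, 353 of Chil3 and 0 of Ccl17. Both sets also held Cd209a, at 489 CPM in the BLM cells and 445 CPM in the naive cells, below the chosen cells, and the naive cells held H2-Ab1 at 3273 CPM and Mgl2 at 890.2 CPM. For each of these 3 genes nearly all naive UMIs lay in 1 of the 2 cells. The counts were 16 of 17 for Cd209a, 123 of 125 for H2-Ab1 and 33 of 34 for Mgl2. The BLM cells held 149 UMIs of Spp1 and the naive cells 12. The 15 BLM cells that only the C1q limit kept out held 284 UMIs of C1qb in all 15, with 3594 UMIs of Retnla in 9 cells, 306 of Ccl2 in 8 cells, Lyz2 at 14724 CPM and 1 UMI of Flt3. The 19 BLM cells that only the Fscn1 condition kept out held Ccl22 in all 19 (717 UMIs), Ccr7 in 18 and Il12b in 11. They held 0 UMIs of Cd209a and Mgl2, and Flt3 in all 19 (62 UMIs). The 25 naive cells kept out only by Cd79a or Ms4a1 held Cd209a at 1968 CPM and Mgl2 at 1973.5 CPM, and 230 UMIs of the immunoglobulin light chain gene Igkc, of which 125 were in 1 cell. As a background, B cells reached the C1q limit in 2.53% of BLM and 0.686% of naive cells and the alveolar limit in 1.74% and 7.54%.

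The second comparison asked how the level of each gene differed between BLM and naive cDC2. Of 4238 genes with 20 or more UMIs over both libraries and no part in the rule, 246 (5.8%) were higher in BLM past 2-fold and 381 (8.99%) were lower, and the median log2 ratio was 0.02. With the further condition that the interval did not reach 0 these were 191 (4.51%) and 224 (5.29%). The cells were chosen without these genes but from the same transcriptomes, so the counts below describe these libraries. Of the 16 lists with 7 or more ranked genes, the matrix and chemokine lists had the highest medians. The interferon, cell cycle, cytokine and immediate early lists had the lowest medians, although the summed cytokine level was higher in BLM. The same genes in all other passed cells are plotted beside them, and for the matrix genes the 2 medians were nearly the same.

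**Figure D3:**
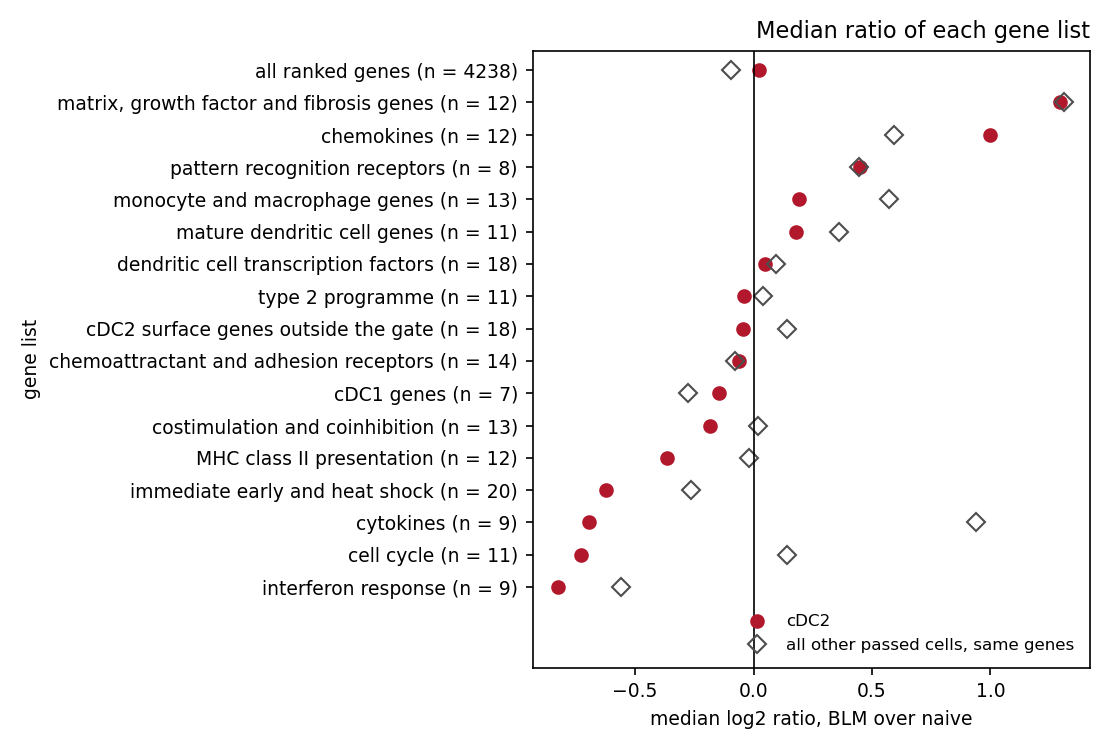
Median log2 ratio, BLM over naive, of the ranked genes of each list in cDC2 (filled circles) and of the same genes in all other passed cells (open diamonds), with the number of ranked genes; the top line is all 4238 ranked genes. In cDC2 the medians run from 1.29 for the matrix list to -0.83 for the interferon list. The cytokine median lies at -0.69 in cDC2 and 0.94 in the other cells. In cDC2 the summed cytokine level, not plotted, was higher in BLM (log2 ratio 0.60).

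Chemokines were led by Ccl17, a ligand of Ccr4 that draws type 2 helper and regulatory T cells (protein coding, GRCm38 chromosome 8, 94810453 to 94812036, plus strand). It stood at 1882 CPM in BLM and 469 CPM in naive, from 376 UMIs in 15 of 33 cells in BLM and 222 UMIs in 21 of 80 in naive, a log2 ratio of 2.005 (1.76 to 2.25). The highest cell held 89 UMIs in BLM and 68 in naive, and most cells of both libraries held none, so the ranges overlapped. B cells, set beside it as a background of free RNA, held a UMI of Ccl17 in 6.65% and 2.51% of BLM and naive cells, at a median of 1785 and 2060 UMIs per cell. All other cells also had more in BLM (1.75), while in cDC1 the levels were 733 CPM in BLM and 1026 CPM in naive. With both macrophage limits dropped the cDC2 ratio was 3.13. Retnla, a secreted protein of alternatively activated myeloid cells (chromosome 16, 48842551 to 48844461, plus strand), stood at 3553 CPM in BLM and 775 CPM in naive, a log2 ratio of 2.20 (2.01 to 2.38). This sum came from few cells, since 3 BLM cells held 99.3% of the 710 UMIs. Of these, 1 held 367 and another 336, and 1 naive cell held 153 of 367. A UMI of Retnla was seen in 24.2% of BLM and 27.5% of naive cDC2, against 5.85% and 13.7% of B cells, and with each cell weighing the same the ratio was 0.98.

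Both genes are known targets of the interleukin-4 and interleukin-13 factor STAT6, and the bases before their starts are printed because each holds its motif (RefSeq, GRCm38.p6, plus strand, 5′ to 3′). Capitals mark the match to TTCNNNNGAA, a motif that reads the same on both strands, beginning 154 bases before the start of Ccl17 and 145 bases before the RefSeq start of Retnla, which lies downstream of the annotated gene start given above. The stretches are chr8:94810203-94810452 for Ccl17 and chr16:48842359-48842550 for Retnla, the latter ended where the annotated first exon begins.
Ccl17: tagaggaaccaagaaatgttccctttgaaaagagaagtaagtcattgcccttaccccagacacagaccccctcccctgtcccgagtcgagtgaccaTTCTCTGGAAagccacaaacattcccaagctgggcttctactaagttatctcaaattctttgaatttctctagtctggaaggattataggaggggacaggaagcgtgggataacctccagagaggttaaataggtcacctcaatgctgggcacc
Retnla: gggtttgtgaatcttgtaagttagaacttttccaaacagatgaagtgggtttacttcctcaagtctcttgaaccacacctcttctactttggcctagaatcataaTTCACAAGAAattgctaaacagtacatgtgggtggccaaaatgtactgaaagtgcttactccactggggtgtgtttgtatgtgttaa
Within 250 bases before the RefSeq start, 5.85% of 32851 promoters held a match, and of the 19 genes of the type 2 list 15 had an entry, of which Ccl17, Pdcd1lg2 and Retnla held one. The motif and the 2 genes were chosen after the values were known, and a match describes letters only.

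The type 2 list held genes on either side. Of 11 ranked, 2 (Ccl17 and Retnla) were higher past 2-fold and 2 lower, beside 5.8% and 8.99% of all ranked genes, with a median of -0.04. Il1rl1, which encodes the interleukin-33 receptor ST2 (chromosome 1, 40429570 to 40465415, plus strand), stood at 20.02 CPM in BLM and 219.6 CPM in naive, from 4 UMIs in 4 of 33 cells in BLM and 104 UMIs in 31 of 80 in naive. The log2 ratio was -3.46 (-5.36 to -2.06), and no BLM cell held more than 1 UMI. Of the naive UMIs, 39 lay in 1 cell that also held 792 UMIs of the mast cell genes counted, which in no other cDC2 exceeded 2, and without that cell the ratio was -2.80. With both macrophage limits dropped it was -2.58. B cells held a UMI of Il1rl1 in 0.949% and 1.60% of cells. Hpgd, an enzyme that breaks down prostaglandins, was the other lower gene, at 40.0 CPM in BLM and 88.7 CPM in naive (-1.15, -2.45 to -0.04), and at a ratio of -2.08 with both limits dropped. Il4ra, the shared receptor chain for interleukins 4 and 13, was at 170.2 CPM in BLM and 95.03 CPM in naive (0.84, 0.15 to 1.52), and Stat6 at 125 CPM in BLM and 129 CPM in naive (-0.04, -0.78 to 0.65). Pdcd1lg2, which encodes the inhibitory ligand PD-L2, had 7 UMIs in 6 BLM cells and 0 in naive. With the floor it was 5.53-fold higher, and the interval of its log2 ratio ran from 1.77 upward. Arg1, arginase 1, had 12 UMIs in 8 BLM cells and 1 UMI in naive, a log2 ratio of 4.83 (2.07 to 10.25), and its ratio in all other cells was 5.83.

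Of 20 chemokines 12 were ranked, 6 of them higher past 2-fold, Ccl17 included, and 1 lower (5.8% and 8.99% of all ranked genes). The median was 0.998. Cxcl2, which attracts neutrophils, was spread over cells, with 97 UMIs in 20 of 33 cells in BLM and 67 UMIs in 23 of 80 in naive and a log2 ratio of 1.78 (1.31 to 2.25). The B cell share with a UMI of Cxcl2 was 23.7% and 14.4%, and the ratio in all other cells was 1.91. Ccl3, an inflammatory chemokine, was at 95.1 CPM in BLM and 14.8 CPM in naive (2.69, 1.37 to 4.18), and at a ratio of 1.30 with each cell weighing the same. Cxcl10, an interferon-induced ligand of Cxcr3, was at 691 CPM in BLM and 63.4 CPM in naive, but its 138 BLM UMIs lay in 3 cells. The 2 BLM cells highest in Retnla held 88 and 49 of them. Cxcl9 rested on 2 BLM cells, 17 of 18 UMIs in 1, and Ccl4 on 6, with 46 of 64 UMIs in 1. Ccl22, like Ccl17 a ligand of Ccr4, differed in spread more than in level. It stood at 350.3 CPM in BLM and 382 CPM in naive (-0.13, -0.55 to 0.28), from 70 UMIs in 6 of 33 cells in BLM and 181 UMIs in 39 of 80 in naive. In cDC1 Ccl22 stood at 89.7 CPM in BLM and 1634 CPM in naive. Cxcl16 was lower in BLM, at 260.2 CPM in BLM and 473 CPM in naive (-0.86, -1.33 to -0.42), whereas all other cells had more of it (0.95). Ccl2, which attracts monocytes, was at 2 and 48 UMIs (-3.34, -6.43 to -1.41), and with both macrophage limits dropped its ratio turned to 1.17.

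**Figure D4:**
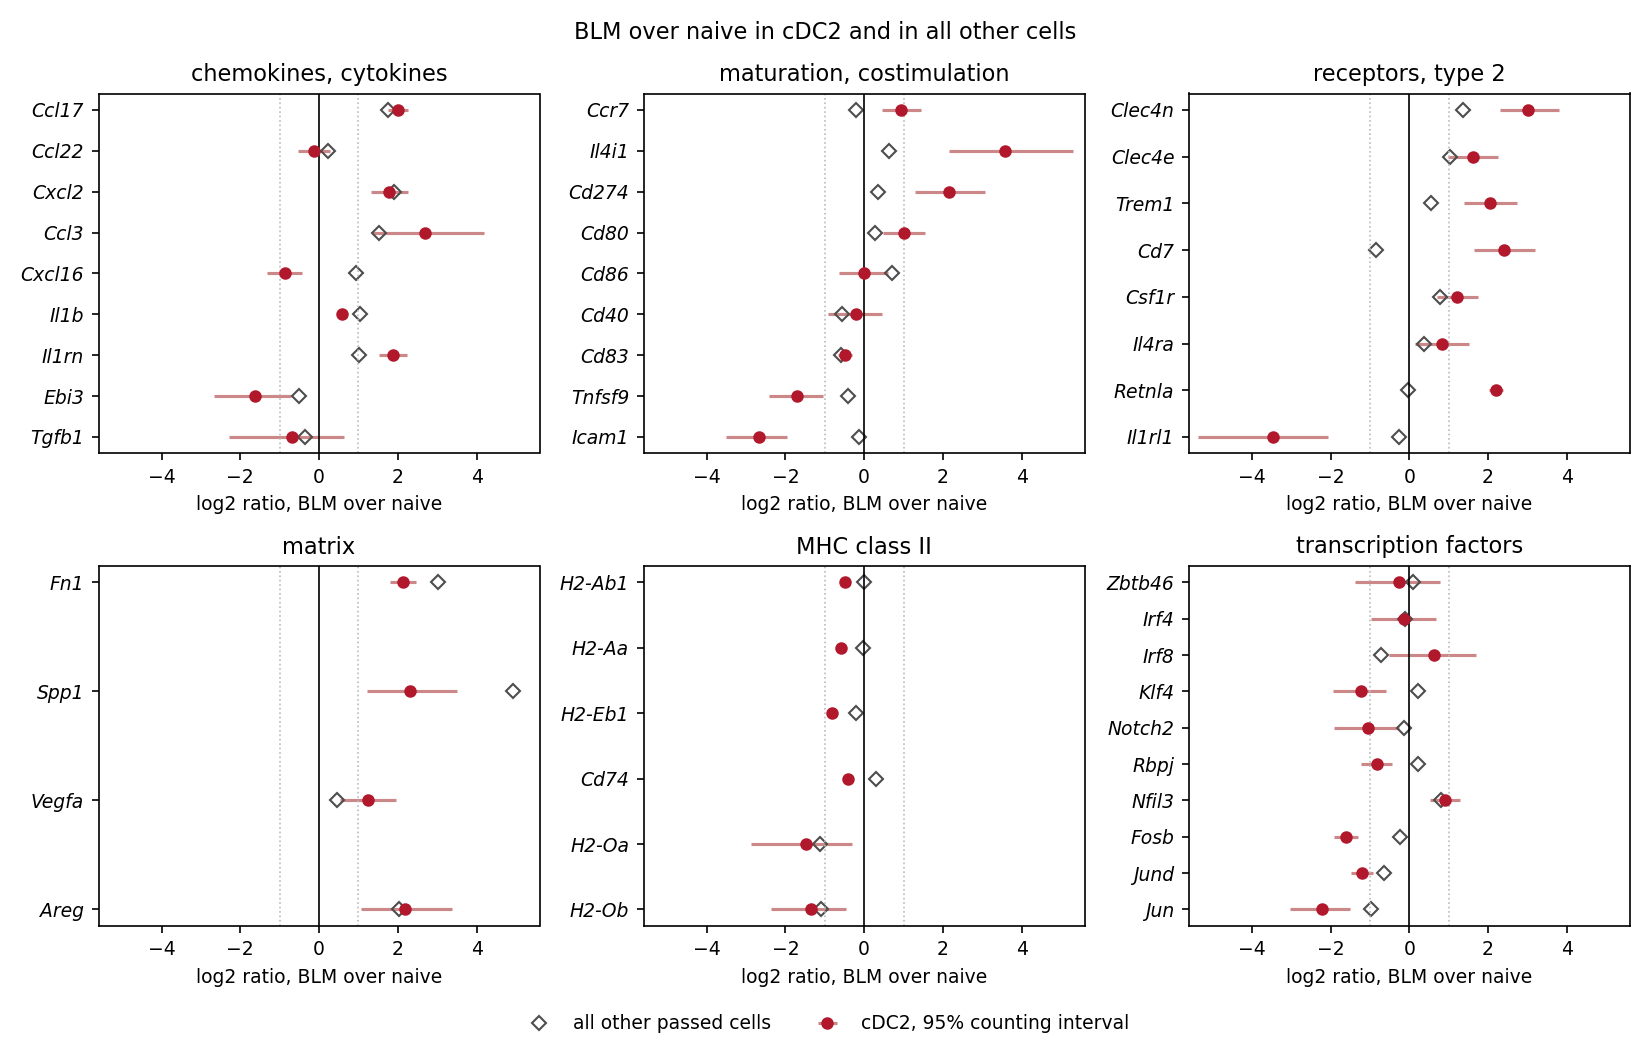
Log2 ratio, BLM over naive, of 46 named genes in cDC2 (filled circles with exact 95% intervals for counting error) and in all other passed cells (open diamonds), in 6 groups; dotted lines mark 2-fold. Ccl17, Il4i1, Cd274, Clec4n, Cd7, Fn1 and Spp1 lie right of 2-fold in cDC2, Il1rl1, Icam1, Fosb and Jun lie left of it, and H2-Ab1, H2-Aa, H2-Eb1 and Cd74 lie left of 0 but within 2-fold.

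Among cytokines, 9 of 20 were ranked, 2 higher and 4 lower past 2-fold (5.8% and 8.99% of all ranked genes). Their median of -0.69 was the ratio of Tgfb1, and 4 intervals lay above 0 and 2 below. The summed level of the list was higher in BLM, at 8427.5 CPM in BLM and 5572.9 CPM in naive (0.60, 0.51 to 0.69), most of it Il1b. Il1b had the most UMIs, with 1403 UMIs in 30 of 33 cells in BLM and 2223 UMIs in 71 of 80 in naive and 7021 CPM in BLM and 4694 CPM in naive, a log2 ratio of 0.58 (0.48 to 0.68) that lay below the 2-fold mark and below the 1.05 of all other cells. Il1rn, the antagonist that blocks the interleukin-1 receptor, was at 881 CPM in BLM and 241 CPM in naive (1.87, 1.52 to 2.22). It was seen in 18 of 33 BLM and 23 of 80 naive cells, against 8.23% and 10.7% of B cells. In cDC1 Il1rn was at 26.9 CPM in BLM and 24.1 CPM in naive. Il6 was higher too (1.45, 0.52 to 2.39), but from 4 BLM cells, and with each cell weighing the same the ratio was 0.50. Il18 had 0 UMIs in BLM and 26 in 18 naive cells, 3.66-fold lower with the floor. Ebi3, a subunit of interleukins 27 and 35, was at 55.0 CPM in BLM and 169 CPM in naive (-1.62, -2.68 to -0.70), seen in 5 BLM and 45 naive cells, and in cDC1 at 20.2 CPM in BLM and 139 CPM in naive. Il1a and Tnf were at 4 and 24 and at 5 and 28 UMIs, both with intervals that reached 0. Tgfb1, the growth factor central to fibrosis, was at 6 and 23 UMIs (-0.69, -2.28 to 0.64), which this depth does not separate. Il12b was not detected in the cDC2 of either library, with exact 95% upper limits of 18.5 CPM in BLM and 7.79 CPM in naive.

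Genes of maturation and costimulation did not share a direction. Of the 11 mature dendritic cell genes ranked, 3 were higher past 2-fold and 2 lower (median 0.18). Of 13 costimulatory and inhibitory genes 2 were higher and 2 lower (median -0.18). Both counts stand beside 5.8% higher and 8.99% lower of all ranked genes. Cd274, which encodes the inhibitory ligand PD-L1, was at 170.2 CPM in BLM and 38.0 CPM in naive (2.16, 1.30 to 3.07), from 34 UMIs in 15 of 33 cells in BLM and 18 UMIs in 13 of 80 in naive. A UMI of Cd274 was thus seen in 45.5% of BLM and 16.2% of naive cDC2, against 19.8% and 17.3% of B cells, so the naive share was no higher than that of B cells. Il4i1, a secreted enzyme that degrades aromatic amino acids and restrains T cells, had 25 UMIs in 8 of 33 cells in BLM and 5 UMIs in 5 of 80 in naive (3.57, 2.16 to 5.31), and a ratio of 2.85 with both macrophage limits dropped. Cd80 was at 280.2 CPM in BLM and 139 CPM in naive (1.01, 0.47 to 1.54), just past 2-fold. Its partner Cd86, the other ligand of CD28, was at 165 CPM in BLM and 165 CPM in naive (0.00, -0.63 to 0.61), and Cd40 at 130.1 CPM in BLM and 149.9 CPM in naive (-0.20, -0.91 to 0.46). Cd83, a maturation marker seen in 29 BLM and 76 naive cells, was at 1676 CPM in BLM and 2329 CPM in naive (-0.47, -0.66 to -0.30). Of the 33 BLM UMIs of Cd86, 14 lay in 1 cell, and its ratio was -0.65 without the highest cell of each library and 0.75 with both macrophage limits dropped. Ccr7 had a ratio of 0.94 (0.44 to 1.43), below 2-fold, and 1.54 with each cell weighing the same.

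Icam1, the adhesion molecule that binds LFA-1 on T cells (chromosome 9, 21015985 to 21028817, plus strand), was among the genes lower in BLM. It stood at 80.1 CPM in BLM and 513 CPM in naive, from 16 UMIs in 13 of 33 cells in BLM and 243 UMIs in 47 of 80 in naive (-2.68, -3.51 to -1.95). No BLM cell held more than 2 UMIs, the highest naive cell held 54, and the ranges overlapped because many naive cells held none. The other dendritic cells had the same order, with 33.6 CPM in BLM and 503 CPM in naive in cDC1 and 185 CPM in BLM and 1156 CPM in naive in mature cells, while the ratio in all other cells together was -0.12. Tnfsf9, the ligand of 4-1BB, was at 110.1 CPM in BLM and 357 CPM in naive (-1.70, -2.41 to -1.05), and in cDC1 at 44.8 CPM in BLM and 289 CPM in naive, and with both macrophage limits dropped the cDC2 ratio was -0.74. Of the mature dendritic cell genes, Marcksl1 and Socs2, an inhibitor of cytokine signalling, were lower, Marcksl1 at 370.3 CPM in BLM and 978 CPM in naive (-1.40, -1.77 to -1.04), and in cDC1 at 56.1 CPM in BLM and 477 CPM in naive.

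Those MHC class II genes with the most UMIs were lower in BLM by less than 2-fold. Of 12 ranked genes 0 were higher past 2-fold and 2 lower (5.8% and 8.99% of all ranked genes). The median was -0.37 against -0.02 for the same genes in all other cells. The 4 with the most UMIs were H2-Ab1 (-0.48, -0.55 to -0.42), H2-Aa (-0.58, -0.66 to -0.50), H2-Eb1 (-0.81, -0.91 to -0.71) and the invariant chain Cd74 (-0.42, -0.49 to -0.35). H2-DMb2, a chain of the peptide-loading factor H2-DM, lay the other way (0.31, 0.02 to 0.59). H2-Ab1 was seen in 31 of 33 and 77 of 80 cells, with a median of 53 UMIs per BLM cell and 90 per naive cell and maxima of 166 and 261, so the ranges overlapped. The order was the same in cDC1, with H2-Ab1 at 9935 CPM in BLM and 13347 CPM in naive, and in mature cells, at 3065 CPM in BLM and 5604 CPM in naive. Past 2-fold were H2-Oa and H2-Ob, the chains of H2-O, which restrains peptide loading, at 7 and 46 and at 12 and 73 UMIs with log2 ratios of -1.47 and -1.36. Ciita, the master regulator of these genes, was at 215 CPM in BLM and 182 CPM in naive (0.24, -0.32 to 0.79), and Ctss, the protease that trims the invariant chain, at 2117 CPM in BLM and 1928 CPM in naive (0.13, -0.03 to 0.30).

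Among surface receptors, Clec4n stood out. It encodes dectin-2, a receptor for fungal mannans (chromosome 6, 123229843 to 123247021, plus strand), and was at 360.3 CPM in BLM and 44.3 CPM in naive, from 72 UMIs in 14 of 33 cells in BLM and 21 UMIs in 16 of 80 in naive (3.02, 2.30 to 3.80). At most 14 UMIs lay in 1 BLM cell and 3 in 1 naive cell, and the ratio was 2.29 with each cell weighing the same. The same order was seen in cDC1 (126 CPM in BLM and 32.1 CPM in naive) and in monocytes (492 CPM in BLM and 87.2 CPM in naive), and B cells held a UMI in 6.33% and 9.83% of cells. Of 8 pattern recognition receptors ranked, 2 were higher past 2-fold and 0 lower (5.8% and 8.99% of all ranked genes). Beside Clec4n the higher one was Clec4e, which encodes Mincle (1.61, 0.97 to 2.26, and 0.99 with both macrophage limits dropped). Trem1, an amplifier of myeloid inflammation, was at 280.2 CPM in BLM and 67.6 CPM in naive (2.05, 1.40 to 2.73), from 19 BLM and 20 naive cells. Csf1r, the receptor of macrophage colony-stimulating factor, was at 330.3 CPM in BLM and 141 CPM in naive (1.22, 0.71 to 1.74), and Csf2rb, the signalling chain of the GM-CSF receptor, was in 31 BLM and 71 naive cells at 1256 CPM in BLM and 743 CPM in naive (0.76, 0.52 to 0.99). Cd7, better known from lymphocytes, was at 245 CPM in BLM and 46.5 CPM in naive (2.40, 1.65 to 3.20), from 9 cells in each library, while all other cells had less in BLM (-0.84). With both macrophage limits dropped the ratio of Cd7 was 1.56.

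Of 18 other cDC2 surface genes ranked, 1 was higher past 2-fold (Clec4n) and 3 lower (Clec4a3, Cx3cr1 and Kit), beside 5.8% and 8.99% of all ranked genes, with a median of -0.05. Sirpa, the receptor for CD47, was at 155 CPM in BLM and 118 CPM in naive (0.39, -0.29 to 1.05), Itgam at a ratio of -0.25 (-0.63 to 0.13), and Itgax, which encodes CD11c, at 495 CPM in BLM and 418 CPM in naive (0.24, -0.12 to 0.60). Ccr2, which guides monocytes and cDC2 precursors into tissue, was at 781 CPM in BLM and 705 CPM in naive (0.15, -0.14 to 0.42), and Cd24a at 440.4 CPM in BLM and 277 CPM in naive (0.67, 0.26 to 1.07). Clec4a3, a C-type lectin receptor, was seen in 10 BLM and 40 naive cells (-1.32, -2.34 to -0.43), and its ratio was -0.73 with both macrophage limits dropped. The intervals of Cx3cr1 and Kit reached 0. Of the 7 cDC1 genes ranked, Sept3 was the higher one and Itgae the lower one, the latter from 1 BLM cell, and its ratio was 1.34 with both macrophage limits dropped.

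The 18 dendritic cell transcription factors were all ranked, with 1 higher past 2-fold and 2 lower (5.8% and 8.99% of all ranked genes). Their median was 0.05. Irf4 (-0.12, -0.97 to 0.67), Zbtb46 (-0.25, -1.39 to 0.78) and Irf8 (0.62, -0.51 to 1.70) had intervals that reached 0. Klf4, which part of cDC2 needs, was at 115 CPM in BLM and 270.3 CPM in naive (-1.23, -1.94 to -0.58), from 13 BLM and 48 naive cells. It was 128 CPM in BLM and 270.5 CPM in naive in cDC1, and with both macrophage limits dropped the cDC2 ratio was -0.50. Notch2 was at 80.1 CPM in BLM and 165 CPM in naive (-1.04, -1.92 to -0.25), and Rbpj, the DNA-binding partner of Notch, at 350.3 CPM in BLM and 619 CPM in naive (-0.82, -1.22 to -0.44), against 0.22 in all other cells. Nfil3 (0.90, 0.52 to 1.28) and Rel, an NF-kB subunit (0.48, 0.15 to 0.80), were higher by less than 2-fold. Bcl11a was the 1 gene past 2-fold upward, with 12 and 13 UMIs and an interval that reached 0 (1.13, -0.13 to 2.38).

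Immediate early genes, which respond within minutes to growth factors and stress, the handling of tissue included, were mostly lower in BLM. Of 20 ranked, 0 were higher past 2-fold and 7 lower (5.8% and 8.99% of all ranked genes). The median was -0.62 against -0.27 in all other cells. Fosb was at 500.4 CPM in BLM and 1525 CPM in naive, in 19 BLM and 68 naive cells (-1.61, -1.92 to -1.30), and in cDC1 at 404 CPM in BLM and 2271 CPM in naive. With both macrophage limits dropped the ratio of Fosb was -0.74 and that of Egr1 -1.47. Jund was at 631 CPM in BLM and 1455 CPM in naive (-1.21, -1.49 to -0.93). Jun was at 85.1 CPM in BLM and 399 CPM in naive (-2.23, -3.04 to -1.51), but 105 of its 189 naive UMIs lay in the cell with mast cell genes and the ratio was -1.08 without it. Egr1 was at 4 and 65 UMIs (-2.78, -4.70 to -1.35) and -1.95 without that cell. The heat shock gene Hspa8 lay the other way, at 1391 CPM in BLM and 1009 CPM in naive (0.46, 0.24 to 0.68). Treatment and the handling of each pool cannot be told apart here.

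Genes of matrix, growth factors and fibrosis were mostly higher in BLM. Of 12 ranked, 7 were higher past 2-fold and 2 lower (5.8% and 8.99% of all ranked genes). The median was 1.29 in cDC2 and 1.31 in all other cells. Fn1, fibronectin, was at 1111 CPM in BLM and 253 CPM in naive (2.13, 1.81 to 2.46), from 222 UMIs in 15 of 33 cells in BLM and 120 UMIs in 25 of 80 in naive, with 70 UMIs in the highest BLM cell and 33 in the highest naive cell. The 2 BLM cells highest in Retnla held 70 and 52 of the UMIs of Fn1. A UMI of Fn1 was seen in 45.5% of BLM and 31.2% of naive cDC2, against 19.9% and 9.94% of B cells, and the ratio was 1.10 with each cell weighing the same and 2.79 with both macrophage limits dropped. Spp1, osteopontin, was at 115 CPM in BLM and 23.2 CPM in naive (2.31, 1.21 to 3.49), in 48.5% of BLM and 8.75% of naive cDC2, but no BLM cell held more than 4 UMIs, B cells held it in 19.6% and 4.69%, and its ratio in all other cells was 4.93. Areg, an epidermal growth factor receptor ligand linked to repair (2.18, 1.06 to 3.38), and Vegfa (1.24, 0.53 to 1.96) were higher from 7 and 13 BLM cells, and Areg was at 1.12 with each cell weighing the same. Mmp12, Mmp25 and Timp1 rested on 8, 5 and 5 BLM cells, with 18 of 27, 6 of 15 and 10 of 16 UMIs in 1 cell. Itgav (-3.15, -8.52 to -0.51) and Timp2 (-1.31, -2.60 to -0.21) were the 2 lower genes, and with both macrophage limits dropped they were at -0.90 and 0.36.

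The interferon list had 9 genes ranked, of which 1 (Isg15) was higher past 2-fold and 2 (Rsad2 and Stat2) lower. Of all ranked genes 5.8% were higher and 8.99% lower. The median of the list was -0.83 against -0.56 in all other cells. Isg15 was at 115 CPM in BLM and 46.5 CPM in naive (1.31, 0.40 to 2.22), 11 of 23 BLM UMIs in 1 cell, and Rsad2 had 11 of 22 naive UMIs in 1 cell. With each cell weighing the same Isg15 was at 0.38, and with both macrophage limits dropped Stat2 was at -0.50. Of 11 cell cycle genes ranked, 5 were lower past 2-fold and 0 higher (8.99% and 5.8% of all ranked genes). Their median was -0.73 against 0.14 in all other cells. These sums rest on few cells. Top2a was seen in 4 BLM and 15 naive cells, and 3 or more UMIs of the mitosis genes were found in 3 of the 33 cells in BLM (9.09%, 1.92% to 24.3%) and 11 of 80 naive cells (13.8%, 7.07% to 23.3%). The intervals of the shares overlap. Ube2c, a mitotic enzyme, was at 3 and 70 UMIs (-3.30, -5.61 to -1.69) and at -1.10 with both macrophage limits dropped, and Top2a and Birc5 were then at -0.28 and -0.69.

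The remaining genes among the 12 highest and 12 lowest were F10, Pi16 and Retnlg on the high side. F10, coagulation factor X, had 21 BLM UMIs, 15 of them in 1 cell, against 3 in naive (4.05, 2.31 to 6.44), and without the highest cell of each library the ratio was 2.93. Pi16 had 21 UMIs in 9 BLM cells and 4 UMIs in 4 naive cells (3.64, 2.07 to 5.64). On the low side Tmem64 and Tmem198b had 0 UMIs in BLM and 32 and 25 in naive, 4.50-fold and 3.52-fold lower with the floor. Cd163, a macrophage scavenger receptor, was at 2 UMIs in 1 BLM cell and 53 in 17 naive cells (-3.48, -6.57 to -1.56), and at 0.17 with both macrophage limits dropped. H2-Q6, a nonclassical MHC class I gene with near-identical relatives that can share its reads, was at 9 and 111 UMIs (-2.38, -3.55 to -1.40).

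RNA of other cell types was looked for with the lists of their markers, beside 5.8% higher and 8.99% lower past 2-fold of all ranked genes. Of 8 plasma and B cell genes, 4 had a UMI in BLM and 7 in naive, and the 2 ranked, Igkc and Ighm, were both lower past 2-fold. Igkc was at 45.0 CPM in BLM and 395 CPM in naive (-3.13, -4.28 to -2.18), in 7 of 33 and 62 of 80 cells, and its levels in monocytes were 47.2 CPM in BLM and 288 CPM in naive. Summed per cell, the list ranged from 0 to 379 CPM in BLM and from 0 to 10238 CPM in naive. Of 8 neutrophil genes, 6 had a UMI in each library and 3 were ranked, all higher past 2-fold, with Ly6g and Ngp at 0 in BLM and Cxcr2 and Ngp at 0 in naive. S100a8, S100a9 and Retnlg had 21 of 31, 18 of 25 and 19 of 30 BLM UMIs in 1 cell, and without the highest 3% of doublet scores their ratios were 0.04, -0.48 and 1.53. Of 10 alveolar macrophage genes, 6 and 10 had a UMI, with Ear1, Krt79, Marco and Fabp1 at 0 in BLM, and 0 of 4 ranked were past 2-fold. Of 8 epithelial and stromal genes, 3 and 5 had a UMI, 0 were ranked and Sftpc was at 0 in both. Of the T and natural killer list 1 of 3 ranked genes was lower past 2-fold (Gzma), and of the plasmacytoid list 0 of 3. The part of such RNA in the results above was not tested beyond these values.

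The cells of 1 library were not alike, as the plot of single cells shows. In BLM, 9 cells with a UMI of Ccr7 held all 70 UMIs of Ccl22, 183 of 376 UMIs of Ccl17 (3423 CPM, against 1319 CPM in the other 24) and 2 of 222 UMIs of Fn1. Lyz2 was at 860.3 CPM with Ccr7 and 8309 CPM without, and H2-Ab1 at 14550.5 and 9395 CPM. The 8 BLM cells with Retnla held 195 of the 222 UMIs of Fn1, and also 153 of the 376 UMIs of Ccl17 (2016 CPM, against 1799.6 CPM in the other 25). Of these 8 cells, 2 held 367 and 336 UMIs of Retnla, and the rest held 1 or 2 each. The same 2 cells held 70 and 52 UMIs of Fn1 and 49 and 88 of Cxcl10, so these sums share cells. In naive, Ccl22 did not follow Ccr7. The 23 naive cells with Ccr7 held 47 UMIs of Ccl22 (268 CPM) and the 57 without held 134 (449 CPM). Ccl17 was at 542 CPM with Ccr7 and 426 CPM without. The 23 cells held 1 of 120 UMIs of Fn1, with Lyz2 at 2305 CPM against 7412 CPM without. Cells with Ccr7 therefore held little Fn1 in both libraries. Cells with a UMI of Ly6c2 (8 BLM and 22 naive) held H2-Ab1 at 5148 and 8845 CPM, against 12287 and 16813 CPM in cells without it. Mgl2 was also lower in them, at 732 and 950.5 CPM against 2216 and 2732 CPM, and Lyz2 higher, at 10344 and 14238 CPM against 5232 and 3096 CPM. Flt3 was higher in cells with Ly6c2, at 142 and 223 CPM against 57.2 and 113 CPM, from 6 and 23 UMIs. Cd209a was higher in them in BLM (2031 against 1391 CPM) and lower in naive (2270 against 2727 CPM). Mgl2, Flt3 and Cd209a are genes of the rule. These splits follow single UMIs of sparse genes and are a description of the cells.

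**Figure D5:**
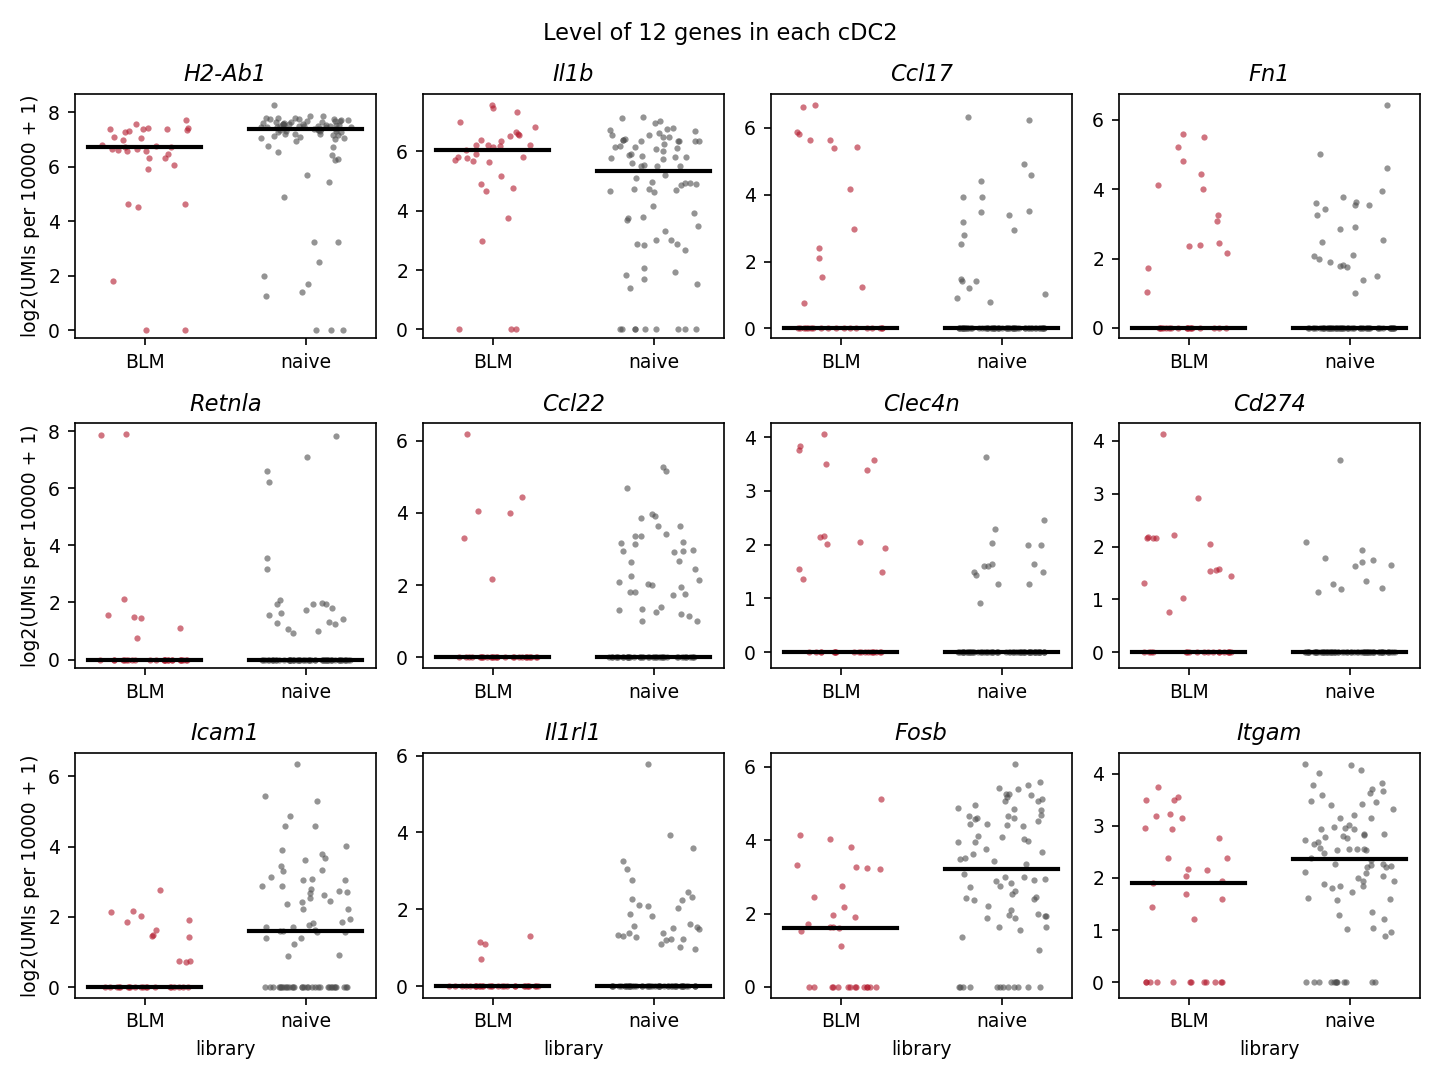
Level of 12 genes in each cDC2, as log2(UMIs per 10000 UMIs of the cell + 1), with BLM (33 cells) left and naive (80 cells) right in each panel; each point is 1 cell, spread sideways at random, and the black bar is the median. H2-Ab1 and Il1b were seen in most cells, Ccl17, Fn1, Retnla and Ccl22 are at 0 in most BLM cells with a few high ones, and Icam1, Il1rl1 and Fosb reach higher in naive, with overlap in every panel.

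Every cell was thinned to 1000 UMIs, for which 3 naive cells and 0 BLM cells were too shallow. The order of the shares of cells with a UMI stayed as it was for Ccl17, Clec4n, Cd274 and Icam1. It turned for Ccr7, Cd24a, Itgax and Ly6c2, and among further genes for H2-Ab1, Cd40, Irf8 and Sirpa. A UMI of Ccr7 was seen in 27.3% of BLM and 28.8% of naive cDC2 before thinning and in 17.9% and 9.68% after it. For Ccl22 these shares were 18.2% and 48.8% before thinning and 13.6% and 20.8% after it. The other thinned shares were for Ccl17 31.8% of BLM and 13.5% of naive cells, for Clec4n 19.3% and 4.35%, for Cd274 13.1% and 3.04%, and for Icam1 8.90% and 26.7%. Unthinned, a UMI of Icam1 was seen in 39.4% of BLM and 58.8% of naive cDC2 and of Il1rl1 in 12.1% of BLM and 38.8% of naive cDC2, and B cells held Icam1 in 7.28% and 11.7% of cells.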

How the data were processed

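Sorted CD45+ lung cells of 2 libraries were sequenced from mRNA captured on beads with molecular identifiers (BD Rhapsody, whole transcriptome). The deposited values are UMI counts per gene and cell with no scaling, made by the authors with the BD WTA Rhapsody Analysis Pipeline 1.8 against GRCm38 with GENCODE vM19, per the file headers. The authors did quality control in SeqGeq and further analysis in Seurat. The files used here held 4714 BLM and 4062 naive barcodes with 22490782 and 18019004 UMIs, and no cell annotation. Barcodes were kept from 200 genes upward and up to a mitochondrial share of 15% (4526 and 3925). No doublet was removed in the main values, and leaving out the 3% highest doublet scores of each library was an alternative.

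The counts of the chosen cells were summed per library and compared with Python 3.11.15, numpy 2.4.6, scipy 1.17.1 and scanpy 1.11.5, and figures were drawn with matplotlib 3.10.9. With 1 library per group no test across samples was possible. Intervals are 95%, exact Poisson for levels, exact binomial for shares and exact conditional for ratios. The coverage of the ratio interval was checked on simulated independent Poisson counts, which is what that interval assumes. The check therefore tests the calculation only, and not the coverage where UMIs cluster in single cells. Genes with 20 or more UMIs over both libraries were ranked and 2-fold was the mark for a difference. The text draws its named genes from the markers and the main cDC2 genes, the 12 highest and 12 lowest ranked genes by the interval end nearer 0 (seen in at least 10% of cells on the higher side), and up to 4 genes per list and direction by the same end. Other members of lists, such as Arg1, Stat6 and Ciita, were named after their values were seen. Members, lists and comparisons were chosen with earlier results of these data known. Clec7a, Ifi30, Sting1 and Cgas were not analysed here. Promoters are from RefSeq (GRCm38.p6). Some genes are not reported here.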

Additional observations from a re-analysis of the deposited data

How the results depend on the processing

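No paired analysis was possible because each group was 1 library, and no replicate could be left out for the same reason. The direction of the cDC2 share and of both counts of genes past 2-fold held without the highest doublet scores, at 10% mitochondrial UMIs, with 5 gate UMIs, without Tnip3 in the gate and with Fscn1 at 0, where the log2 ratio of the share lay between -1.62 and -1.42 and counts within 1.5 times of the main ones. With 1 exclusion of the gate dropped, it lay between -1.73 and -0.90. Dropping both macrophage limits, an alternative chosen after seeing the data, gave a BLM share of 1.44%, a ratio of -0.77, and reversed ratios for Cd163 (0.17), Ccl2 (1.17), Itgae (1.34), Ctsd (-0.13) and Timp2 (0.36). Of 105 named genes, 77 then stayed, 23 differed more than their interval and 5 reversed. Counts past 2-fold followed the minimum of UMIs, with 66 higher and 110 lower of 2140 genes at 50 or more UMIs. With no minimum they were 3633 and 1054 of 12031. Without a minimum, the floor of 15.0 CPM lets a gene with 0 UMIs in BLM and few in naive count as higher. The 3633 are therefore no count of genes seen more in BLM. With cells thinned to 1000 UMIs the counts were 52 and 73 of 927, and 36 of 88 named genes differed more than their interval and 2 reversed. S100a9 reversed without the highest doublet scores (-0.48), when thinned (-0.10) and without the highest cell (-0.41), the latter also chosen after seeing the data, and Mmp12 reversed when thinned (-0.78). The cause of these reversals was not tested. With 199822 UMIs in BLM cDC2, a gene under 15.0 CPM may go unseen.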
